A study of Mus musculus with 3 samples.

Results

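The subunits of canonical Polycomb repressive complex 1 (PRC1) were followed on 3 arrays of mouse embryonic stem (ES) cells on day 0, day 1 and day 2 of Gata6 overexpression. The group holds 9 genes out of 18193 with a probe set of their own: the E3 ligases Ring1 and Rnf2, the PCGF proteins Bmi1 and Pcgf2, the chromodomain proteins Cbx2, Cbx7 and Cbx8, and the polyhomeotic proteins Phc1 and Phc2. They were chosen by name, with earlier results of these data known. Every probe set that the platform annotation assigns to 1 of them alone was taken, which gave 20 probe sets. Ring1 and Phc1 have 1 each and the other 7 genes several.

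ES cells are cultured pluripotent cells derived from the early embryo, and Gata6 is a transcription factor of the primitive endoderm, an extraembryonic layer. All groups are mouse ES cells. Per the series' text the cells had been modified so that dex, taken here to be the synthetic glucocorticoid dexamethasone, brings about the overexpression of Gata6. The control group is the day 0 culture, and the other groups are the day 1 and day 2 cultures under Gata6 overexpression. The labels give no strain, clone, promoter or dex dose, and do not say whether the day 0 cells carried the construct or differed only in dex. Each day has 1 array and so no replicate: a day cannot be told apart from its single culture and its array, and no test between days was possible.

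PRC1 is a chromatin repressor that places ubiquitin on histone H2A and compacts nucleosomes at developmental genes. Each canonical complex is built from 1 member of each of 4 families of related genes: a RING1 ligase, a PCGF partner that the ligase needs, a CBX protein whose chromodomain reads trimethylated histone H3, and a PHC protein whose SAM domain links complexes to each other. Members of a family can replace each other, so the makeup of the complex differs between cell types. Cbx7 is known as the main CBX protein of ES cells, and Cbx2 and Cbx8 as CBX proteins of differentiating cells.

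Signals are MAS5 intensities scaled to a common trimmed mean, and those under 54.2 (the floor, at percentile 40 of the table) were set to that value before log2 was taken. A gene is represented by its probe set with the highest mean log2 signal, and is called higher or lower where 2 arrays differ at least 2-fold with the brighter one above the floor. The arrays had median signals of 81.8 to 86.4 and between 12286 and 12648 genes above the floor. Gata6 read 109.6 on day 0, 5577 on day 1 and 6068 on day 2 on its brightest probe set; whether that probe set reads the introduced gene, the cell's own or both is not given. The ES cell markers Pou5f1 (4049, 1494 and 828) and Nanog (14625, 3444 and 1841) were dimmer on the later days but above the floor on each. Of 12 primitive endoderm markers 12 were higher on both days, and of 10 ES cell markers 8 were lower on day 1 and 9 on day 2. The widest on day 2 were Pdgfra (at least 147-fold), Sox17 (at least 223-fold) and Dab2 (340.2-fold) among the former, and Fgf4 (14.6-fold), Tdgf1 (10.3-fold) and Sox2 (9.65-fold) among the latter. Of 10 fibroblast markers, which would show feeder cells, 5 (Col1a1, Col3a1, Postn, Lum and Dcn) were at the floor on all 3 arrays, and 3, 4 and 4 were above it on days 0, 1 and 2. Thy1 (421, 75.5 and 50.5) was at least 7.77-fold lower and Twist1 (7.00, 89.0 and 113) at least 2.08-fold higher on day 2. The summed signal of that list was 875, 633 and 705 on the 3 days, and 454, 557 and 654 without Thy1, and its part in the values of the PRC1 genes was not tested. In bulk RNA, fewer cells of a type and less RNA per cell cannot be told apart.

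In the PHC, CBX and PCGF families at least 1 member was 2-fold apart from day 0. Bmi1 was 4.79-fold higher on day 2 than on day 0 while Pcgf2 was 1.64-fold lower, Phc1 was 9.51-fold lower while Phc2 was 2.13-fold higher, and Cbx7 was 2.62-fold lower while Cbx8 was 3.08-fold higher. Cbx8 is dim, its other probe set was at least 1.33-fold lower, and its call is lost with a higher floor or with the mean over probe sets. Neither ligase was 2-fold apart: Ring1 was 1.24-fold higher and Rnf2 1.44-fold lower. On day 2, 3 of the 9 genes were at least 2-fold higher (Bmi1, Cbx8 and Phc2), where 11.1% of 13855 genes compared were higher, and 2 were at least 2-fold lower (Cbx7 and Phc1), where 10.1% were lower. Without the Cbx8 call, under the settings just named, 2 were higher and 4 in all were apart. On day 1, 1 of 9 was higher (Bmi1), against 6.02% of 13595 genes, and 2 were lower (Cbx7 and Phc1), against 6.55%. Between day 1 and day 2, 0 of 9 were at least 2-fold apart, where 5.59% of 13461 genes were higher and 3.68% lower on day 2. The median log2 ratio of the 9 genes was -0.20 on day 1 and -0.52 on day 2, with -0.04 and -0.05 for all genes compared. The median size of the log2 ratio, whatever its sign, was 0.93 and 1.09 for the 9 genes and 0.34 and 0.48 for all genes. All genes compared include those with 1 array set to the floor, which shrinks their ratios, while no member was at the floor on the probe set used. As the 9 genes were chosen with earlier results known, the larger size is a description and no test of the group. The members lay on both sides of 0, with 4 above and 5 below on each day.

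**Figure D1:**
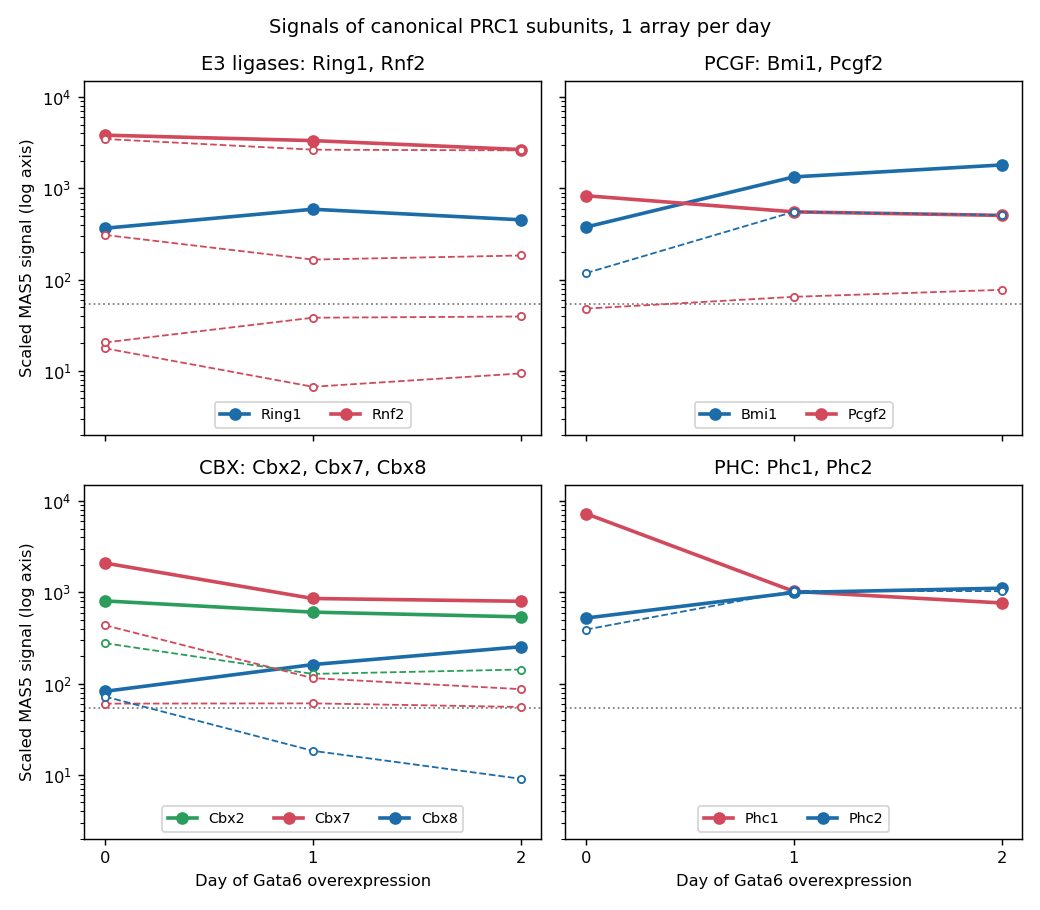
Scaled MAS5 signal on a log axis against day, with 1 panel per family and 1 line per probe set. Solid lines with filled points are the probe set that stands for a gene, dashed lines with open points its other probe sets, and the dotted line is the floor of 54.2. Phc1 runs from 7290.0 to 767 while both Phc2 lines lie higher on the later days than on day 0. Both Bmi1 lines also lie higher on the later days than on day 0, while the bright Pcgf2 line runs from 831 to 506.

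The error of a log2 ratio could only be estimated from genes with several probe sets, as the spread between 2 probe sets of a gene that read the same pair of arrays. This measurement SD was 0.50 where signals were under 200, 0.38 between 200 and 1000, 0.25 between 1000 and 5000, and 0.16 over 5000. The variation between cultures is not part of it. Of the 20 probe sets, 16 were above the floor on all 3 arrays and 2, both of Rnf2, on none. In 5 genes more than 1 probe set exceeded the floor on all arrays, and the ratios of a gene's probe sets shared a sign in 4 of them on day 1 and in 5 on day 2, each against day 0. For day 2 against day 1 they did so in 1 of 5, Cbx7. The exception on day 1 was also Cbx7, whose dimmest probe set had a log2 ratio of 0.01. Pcgf2 and Cbx8 are not among the 5 genes, and their probe sets had opposite signs on both days against day 0.

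The sequence before the transcript start is shown for Bmi1, Cbx8 and Phc1, genes at either end of the range whose RefSeq window lies outside the gene's own span. The RefSeq promoter table (build GRCm38.p6) held 10 windows for 8 of the 9 genes; Cbx2 is not in it. The Bmi1 window is chr2:18676768-18677017 on the plus strand, the Cbx8 window chr11:119040914-119041163 on the minus strand and the Phc1 window chr6:122340228-122340477 on the minus strand. Each is written 5′ to 3′ on the gene's strand and covers the 250 bases before the start. Capitals mark matches, on either strand, to the E-box CACGTG, to a GATA motif (AGATAA, the same with T in first place, or either with G in last place) or to the octamer ATGCAAAT.
Bmi1: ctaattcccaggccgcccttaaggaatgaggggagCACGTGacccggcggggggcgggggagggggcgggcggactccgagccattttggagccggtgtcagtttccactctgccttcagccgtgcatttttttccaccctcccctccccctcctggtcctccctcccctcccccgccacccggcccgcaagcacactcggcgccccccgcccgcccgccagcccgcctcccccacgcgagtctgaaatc
Cbx8: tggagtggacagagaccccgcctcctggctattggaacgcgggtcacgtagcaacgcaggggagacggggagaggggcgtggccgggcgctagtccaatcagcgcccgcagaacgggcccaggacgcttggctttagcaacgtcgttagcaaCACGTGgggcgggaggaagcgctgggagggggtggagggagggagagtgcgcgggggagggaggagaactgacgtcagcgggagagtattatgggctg
Phc1: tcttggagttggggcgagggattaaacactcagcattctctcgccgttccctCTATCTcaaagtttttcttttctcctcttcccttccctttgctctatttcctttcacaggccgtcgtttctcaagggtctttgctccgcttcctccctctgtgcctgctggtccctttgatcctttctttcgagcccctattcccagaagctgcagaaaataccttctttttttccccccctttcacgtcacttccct
Bmi1 and Cbx8, the genes among these that were higher on day 2, have an E-box whose first base lies 215 and 98 bases before the start. Phc1, the lower gene, has none and holds a GATA match that begins 198 bases before the start. CpG pairs number 21 in the Bmi1 window and 22 in that of Cbx8, more than in 83.7% and 85.2% of all 32851 windows, and 8 in that of Phc1, more than in 57% of windows. Cbx7, also called lower on day 2, has 23 in its window, more than in 86.7% of windows, and no motif match. The 3 windows of Phc2, called higher, hold 13, 1 and 34. Ring1, Rnf2 and Pcgf2, all within 2-fold, have 30, 20 and 5. Over the 8 genes, an E-box was found in a window of 4 (Bmi1, Pcgf2, Cbx8 and Phc2), for Phc2 in 1 of its 3 windows. These are the 3 genes called higher, of which Cbx8 has a call that rests on 1 dim probe set, and Pcgf2, which was within 2-fold. A gene with several windows has more room for a match, so this count of genes is not on the scale of a share of windows. Of all windows 6.02% hold an E-box, and 9.98% of the 8356 windows with at least 16 CpG pairs. A GATA match was found for 2 of the 8 genes (Pcgf2 and Phc1), whose windows both hold fewer than 16 CpG pairs. Of all windows 26.5% hold a GATA match, and 7.9% of those with at least 16 CpG pairs. An octamer was found for 1 gene (1 of the 3 Phc2 windows) and in 1.6% of windows. These matches describe the letters in the windows and do not show binding.

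The catalytic subunits were compared first. Ring1 (Ring1A), 1 of the 2 ligases, read 366 on day 0, 591 on day 1 and 453 on day 2 on its only probe set, 1422647_at. It was brightest on day 1, with log2 ratios of 0.69 on day 1 and 0.31 on day 2 against day 0, each with a measurement SD of 0.38. Rnf2 (Ring1B), the ligase that carries most of the activity in ES cells, read 3829, 3339 and 2665 on probe set 1424873_at. Its second bright probe set, 1451519_at, read 3476, 2655 and 2607. Both were brightest on day 0 and dimmest on day 2, with day 2 log2 ratios of -0.52 and -0.41 and a measurement SD of 0.25. Probe set 1448042_s_at, whose suffix marks possible cross-hybridisation, read 309, 166 and 184 and had a day 2 log2 ratio of -0.75. Probe sets 1448041_at and 1448043_x_at stayed under the floor with highest signals of 17.7 and 39.5 and gave no ratio. Neither ligase was 2-fold apart from day 0 on either day. The log2 ratio of Ring1 exceeded that of Rnf2 by 0.89 on day 1 and 0.83 on day 2, with a measurement SD of 0.46, and over the 3 pairs of probe sets by 0.89 to 1.59 and 0.72 to 1.06.

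The PCGF proteins bind the ligase and set which form of PRC1 it joins. Bmi1 (Pcgf4), known for repression of the Cdkn2a locus and for stem cell self-renewal, read 377 on day 0, 1336 on day 1 and 1806 on day 2 on probe set 1417493_at. Its second probe set, 1448733_at, read 118, 555 and 510.3. On both, the later days were far above day 0. The folds on day 1 were 3.55 and 4.71, and on day 2 4.79 and 4.33. The log2 ratios were 1.83 and 2.23 on day 1 and 2.26 and 2.11 on day 2, each with a measurement SD of 0.38. Among all genes compared, Bmi1 had the 268th highest ratio on day 1 and the 354th highest on day 2. The step from day 1 to day 2 differed between the probe sets, one being brighter and the other dimmer on day 2, so no further change after day 1 can be read.

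Pcgf2 (Mel18), the close paralog of Bmi1, read 831, 553 and 506 on probe set 1420645_at. Day 0 was the brightest, with log2 ratios of -0.59 on day 1 and -0.72 on day 2 and a measurement SD of 0.38. The other probe set, 1456330_at, lay near the floor at 48.2, 64.9 and 77.4 and ran the other way, at least 1.20-fold and 1.43-fold higher. The lower signal of Pcgf2 therefore rests on 1 probe set, and it was within 2-fold. The log2 ratio of Bmi1 exceeded that of Pcgf2 by 2.41 on day 1 and 2.98 on day 2 (measurement SD 0.54), a 5.33-fold and 7.87-fold shift of one against the other. With the mean over all probe sets, dim ones included, the day 2 difference was 2.29.

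The CBX proteins read the mark of the second Polycomb complex and bring PRC1 to its targets. Cbx7 read 2097 on day 0, 858 on day 1 and 799.8 on day 2 on probe set 1433557_at. Probe set 1420039_s_at, whose suffix marks possible cross-hybridisation, read 437, 115 and 87.2. Probe set 1449713_at read 60.5, 60.9 and 55.6, just above the floor on each array. The 2 brighter ones were 2.44-fold and 3.79-fold lower on day 1 and 2.62-fold and 5.01-fold lower on day 2. Their log2 ratios on day 2 were -1.39 (measurement SD 0.25) and -2.33 (0.50), and that of the dim one was -0.12. Most of the difference was present on day 1: between day 1 and day 2 the bright probe set differed 1.07-fold.

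Cbx2 (M33), known for a role in sex determination and for compacting chromatin, read 807, 608 and 539.9 on probe set 1434116_at and 278, 128 and 143 on 1422059_at. Day 0 was the brightest on both, with day 2 log2 ratios of -0.58 (measurement SD 0.38) and -0.97 (0.50). The first was within 2-fold on each day, and the second was 2.17-fold lower on day 1 and 1.95-fold lower on day 2. The log2 ratio of Cbx7 minus that of Cbx2 was -0.88 on day 1 and -0.81 on day 2 (measurement SD 0.46). Over the 6 pairs of probe sets the day 2 difference ran from -1.75 to 0.84, so the order of these genes depends on the probe sets used.

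Cbx8 (Pc3), a CBX protein of differentiating cells, read 82.5, 162 and 254 on probe set 1419198_at. The signal was higher on each later day, 1.97-fold on day 1 and 3.08-fold on day 2, with log2 ratios of 0.98 and 1.62 and a measurement SD of 0.50. The other probe set, 1419199_at, read 72.3, 18.4 and 9.09, which is above the floor on day 0 only and at least 1.33-fold lower on both later days. The probe sets of Cbx8 thus disagree in sign, both are dim, and the call as higher rests on 1 of them. Its day 2 log2 ratio was 0.79 where the floor was raised to 146.5 (percentile 60) and 0.60 as a mean over both probe sets, each short of 2-fold. The log2 ratio of Cbx7 lay below that of Cbx8, with a difference of -2.27 on day 1 and -3.01 on day 2 (measurement SD 0.56), and with -2.18 and -1.88 on day 2 under those settings. The mean over both Cbx8 probe sets uses the floored day 2 log2 ratio of 1419199_at, -0.42. Without the floor that ratio was -2.99, so the sign of the Cbx8 mean depends on the floor.

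The PHC proteins carry the domain by which PRC1 complexes join into larger bodies. Phc1 (Rae28), a mouse homologue of the fly protein polyhomeotic, read 7290.0 on day 0, 1026 on day 1 and 767 on day 2 on its only probe set, 1423212_at. Day 0 stood far above both later days. It was 7.10-fold lower on day 1 and 9.51-fold lower on day 2, with log2 ratios of -2.83 and -3.25 and a measurement SD of 0.25. Of all genes compared it had the 45th lowest ratio on day 1 and the 59th lowest on day 2, a value under which 0.324% and 0.419% of genes lay. No other probe set can check it.

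Phc2 (Mph2) read 524, 998 and 1113 on probe set 1416048_at and 392, 1040.4 and 1033 on 1437239_x_at, whose suffix marks possible cross-hybridisation. Day 0 was the dimmest on both, and days 1 and 2 were close to each other. The folds were 1.91 and 2.65 on day 1 and 2.13 and 2.63 on day 2, and the day 2 log2 ratios 1.09 and 1.40 with a measurement SD of 0.38. On day 1 the first probe set thus lay just under the 2-fold rule and the second above it. The log2 ratio of Phc1 minus that of Phc2 was -3.76 on day 1 and -4.34 on day 2 (measurement SD 0.46), a 13.5-fold and 20.2-fold shift, the widest of the 5 paralog pairs. Under all alternative settings tried it stayed between -4.49 and -4.24 on day 2.

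**Figure D2:**
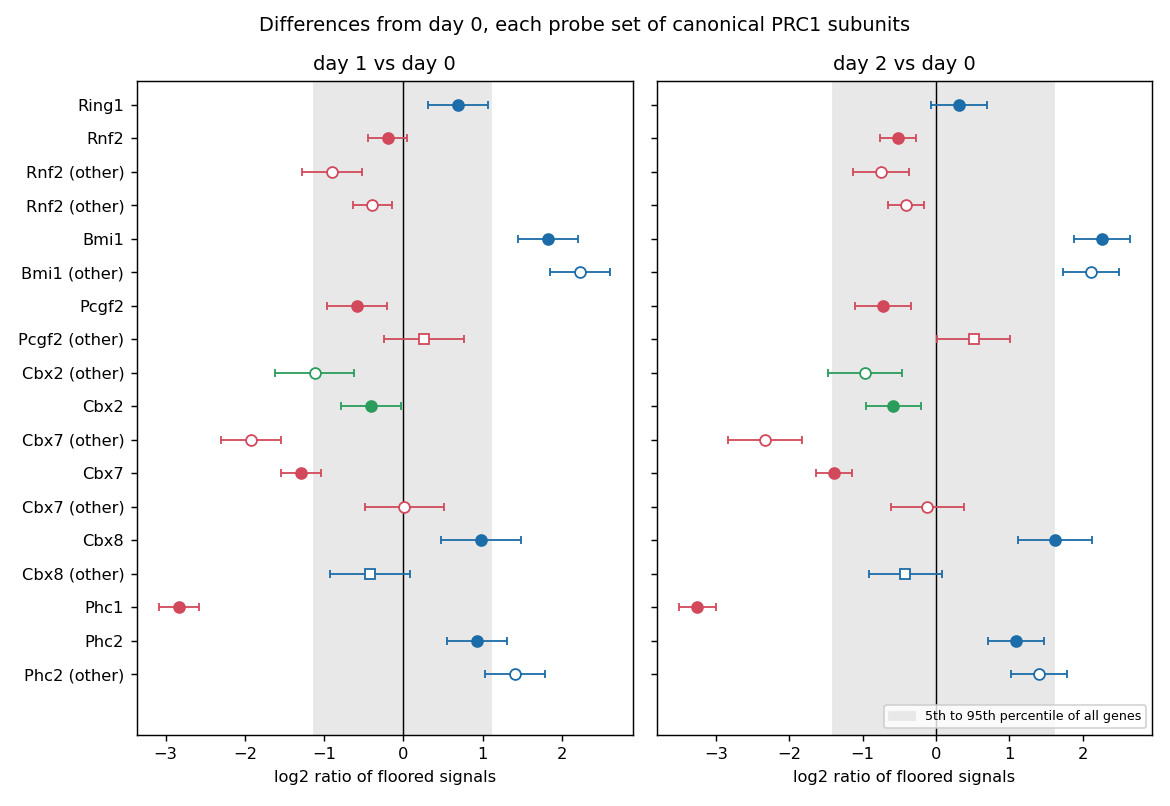
Log2 ratio of floored signals against day 0 for the 18 probe sets above the floor on at least 1 array, on day 1 and on day 2. Filled circles are the probe set that stands for a gene, open circles its others, open squares ratios that are bounds because 1 array was at the floor; bars are the measurement SD and the grey band holds the 5th to 95th percentile of all genes compared. Both Bmi1 points, the Phc1 point and the lowest of the Cbx7 points lie outside the band on both days. The filled Cbx7 point and the open Phc2 point lie outside it on day 1 only, and the filled Cbx8 point lies just outside it on day 2. The Ring1 and Rnf2 points lie inside it.

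Of the 5 pairs, Phc1 and Phc2 were the farthest apart on day 2 (-4.34), while Ring1 and Rnf2 (0.83) and Cbx7 and Cbx2 (-0.81) were the closest. In 4 of the 5 pairs (Ring1 and Rnf2, Bmi1 and Pcgf2, Cbx7 and Cbx8, Phc1 and Phc2) the paralogs had opposite signs on both days, and in Cbx7 and Cbx2 the same sign. For Pcgf2 and Cbx8 that sign is the sign of 1 probe set, and their dimmer probe sets run the way of Bmi1 and of Cbx7. Ring1 and Phc1 have only 1 probe set each. The opposite signs of Ring1 and Rnf2 are not resolved on either day. Rnf2 on day 1 (-0.2, measurement SD 0.25) and Ring1 on day 2 (0.31, measurement SD 0.38) lay within that error of 0. These are differences in change: signals of different probe sets are not on a common scale, so which paralog was the more abundant on any day was not determined. Day 1 and day 2 share the day 0 array, so their likeness is no independent support.

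**Figure D3:**
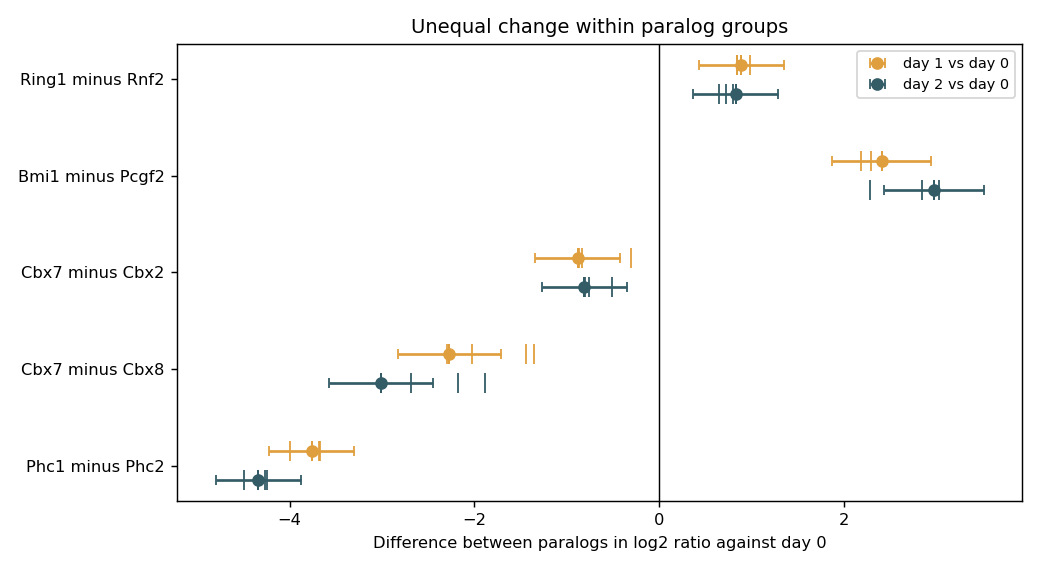
Difference between paralogs in log2 ratio against day 0, for 5 pairs on day 1 and day 2. Points are the values as reported with the measurement SD as bars, and vertical ticks are the values under 8 alternative settings. The Bmi1 ticks all lie above 2 and the Phc1 ticks all below -3, while the Cbx7 minus Cbx8 ticks reach -1.35 on day 1 and -1.88 on day 2.

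The remaining Polycomb genes were counted from lists by complex. Of 4 other canonical PRC1 genes on the array, 0 were higher and 1 lower on each day, a different gene each time. The median log2 ratios were -0.73 on day 1 and -0.50 on day 2, with -0.04 and -0.05 for all genes. The shares of all genes were 6.02% higher and 6.55% lower on day 1, and 11.1% and 10.1% on day 2. On day 2 the lower one was the chromodomain gene Cbx6 (1129.6, 612 and 528), 2.14-fold lower. On day 1 it was Scmh1 (214, 107 and 194), at the 2-fold limit. The Scmh1 call is lost with the floor at percentile 60, with the pseudocount, and with median or quantile scaling. Phc3, the third polyhomeotic gene, read 252, 280.3 and 269, so within the PHC family Phc1 was lower, Phc2 higher and Phc3 close to its day 0 signal.

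Of 19 variant PRC1 genes, from complexes that lack the CBX and PHC proteins above, 1 passed the 2-fold rule on day 1, upward, and 5 passed it on day 2, 2 of them upward and 3 downward (median -0.31 and -0.14). These shares lie near those over all genes on day 2, 11.1% upward and 10.1% downward. The higher ones on day 2 were Yaf2 (237, 723 and 1160.2; 4.89-fold), a partner of RING1 in variant complexes, and Pcgf5 (839, 1442 and 3178; 3.79-fold), the PCGF protein of another variant complex. L3mbtl2 was 2.40-fold, Mga 2.09-fold and Wdr5 2.01-fold lower, all 3 known as partners in the Pcgf6 complex. Of the other PCGF genes, Pcgf1 (log2 ratio -0.58), Pcgf3 (0.42) and Pcgf6 (-0.26) were within 2-fold on day 2, so Bmi1 and Pcgf5 were the PCGF genes past the 2-fold rule. With only specific probe sets, 1 variant gene was higher on day 2.

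Of 12 genes of the second Polycomb complex, which places the mark that CBX proteins read, 1 passed the rule upward on day 1 and 4 downward on day 2, with 0 the other way on either day (median -0.37 and -0.53). Over all genes 6.02% were higher on day 1 and 10.1% lower on day 2. The day 1 call was Ezh1 (383, 791 and 525; 2.07-fold), which is lost with specific probe sets alone, with the mean over probe sets and with the pseudocount. The widest on day 2 were Jarid2 (4.14-fold lower) and Mtf2 (2.86-fold), accessory subunits that help the complex bind chromatin, and Eed (2.66-fold), a core subunit. Most of their difference came between day 1 and day 2: Jarid2 read 11659.8, 7719 and 2817 and Mtf2 11698, 9529 and 4086. Between the same days Phc1 differed 1.34-fold and Cbx7 1.07-fold. Of 7 genes that remove ubiquitin from H2A or assist in it, 0 were 2-fold apart on day 1. On day 2, 2 were lower, Asxl1 (2.47-fold) and Usp21 (2.15-fold), where 10.1% of all genes were lower. The day 2 median was -0.31, with -0.05 for all genes. Only 1 was lower on day 2 with specific probe sets alone, and likewise when each gene's probe sets were averaged. Lowering the floor to percentile 25 gave 3 lower genes on day 2, as did a 1.5-fold threshold, while a 3-fold threshold gave 0.

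**Figure D4:**
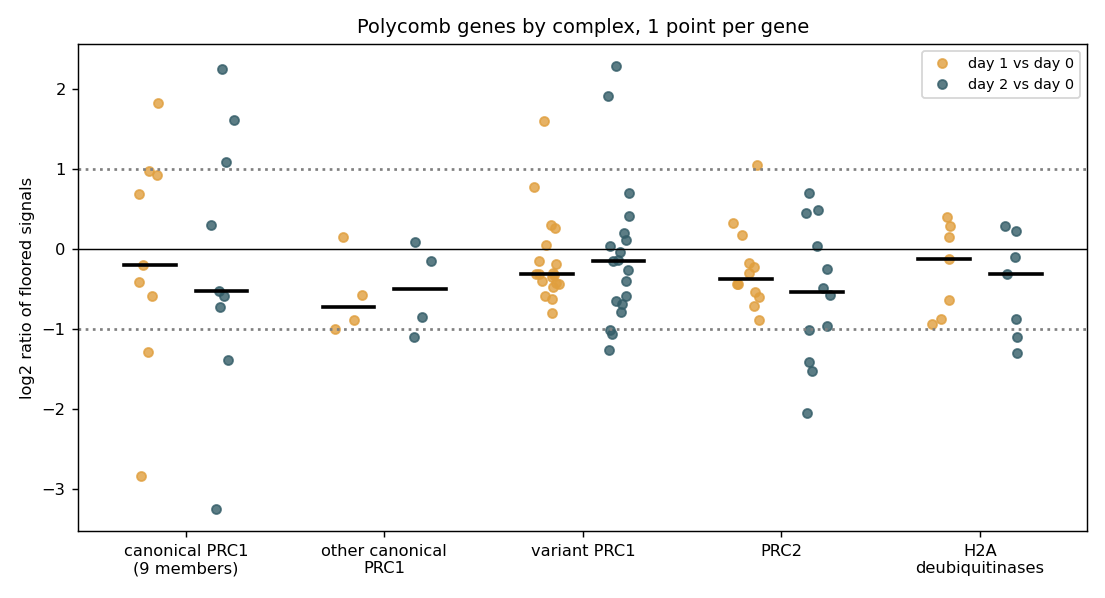
Log2 ratio of floored signals against day 0 for each gene above the floor, by complex, on day 1 and day 2. Points are genes, black bars the median of a list, and dotted lines the 2-fold limits; horizontal jitter carries no meaning. The 9 canonical subunits reach from -3.25 to 2.26 on day 2, and the genes of the second complex reach down to -2.05.

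Genes commonly listed as Polycomb targets in ES cells were mostly dim. Of 55 on the array, 28 could be compared on day 1 and 30 on day 2. On day 1 there were 6 higher genes and 0 lower ones (median log2 ratio 0.36), and on day 2 there were 9 and 1 (median 0.54). Over all genes 6.02% were higher and 6.55% lower on day 1, and 11.1% and 10.1% on day 2. A target under the floor on day 0 was compared only where the later array was above it, so its ratio could only be above 0. Of the genes higher on day 2, Gata4, Sox17, Foxa2, Msx2, Cdx2 and Hoxd9 were of this kind. Only Hoxb9 and Hoxc5 were compared on day 2 through the day 0 array alone. The medians and the split between higher and lower are therefore partly set by the rule. Gata4, Gata6, Sox7, Sox17 and Foxa2, which are 5 of the 6 higher on day 1 and 5 of the 9 on day 2, also stand on the endoderm list, and Gata6 is the overexpressed gene. The others were Msx2 (28.2, 892 and 1302), higher on both days and at least 24.0-fold on day 2, and Cdx2, Hoxd8 and Hoxd9, higher on day 2 only. The widest higher genes on day 2 were Sox17 (at least 223-fold), Gata6 (55.4-fold) and Gata4 (at least 50.7-fold). The lower one was Hoxc9 (147, 102 and 54.4). Cdkn2a, the known target of Bmi1, read 11.8, 90.8 and 99.2, at least 1.83-fold higher on day 2, a bound short of the 2-fold rule. The number of higher genes on day 2 was 16 with the floor lowered to 26.1 (percentile 25), and 6 with the floor raised to 146.5, where Hoxc9 was no longer called.

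Genes with the pattern most like a member's were sought for the member of each family with the widest day 2 ratio, by the Euclidean distance between log2 ratios of day 1 and day 2 against day 0, over 3 arrays and among genes of like mean signal. For Bmi1 these were Gfpt1 (706, 2219 and 3401) and Bag3 (198, 706 and 839.7), both at a distance of 0.175 among 3865 genes. For Phc1 they were Epb41l4a (3943, 583 and 395; distance 0.099) and Klf2 (5784, 741 and 586; 0.147) among 3185. For Cbx8 they were Cyp27a1 (0.063) and 1700052K11Rik (0.082) among 3187, and for Rnf2 Polr2c (0.008) and Dis3 (0.016) among 2235. Distances were smaller for Rnf2, which lies where most genes lie, than for Bmi1. With 3 arrays, such likeness describes these cultures only.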

How the data were processed

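Per the labels' protocols, total RNA was taken with Trizol, cleaned on columns and labelled with an Affymetrix one-cycle kit. The authors deposited linear intensity values made with MAS5, which the submitters' processing notes name without a version and which sets perfect-match against mismatch probes to give 1 signal per probe set. The trimmed means of the columns (496.8 to 497.4) show a common scaling whose target is not stated. It assumes equal total signal on each day. No column went unused.

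Of 45037 probe sets that are not controls, 34945 were annotated to 1 gene, 932 to several (left out) and 9160 to none. Symbols were updated through gene identifiers in a RefSeq table (GRCm38.p6), which matched 34741. Arrays were rescaled to a common 2% trimmed mean (factors 0.9994 to 1.0008), signals under the 40th percentile (54.2) were set to it, and log2 was taken (Python 3.11.15, pandas 2.3.3). A gene was compared where at least 1 of the 2 arrays lay above the floor. A ratio with 1 array at the floor is a lower bound, written as at least N-fold. The code was tested on simulated data.

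The 9 genes, the lists and the alternatives were chosen with earlier results of these data known. Named genes are the members, per list the up to 3 widest past 2-fold in each direction on day 2, the 2 genes most like the widest member of each family, and Gata6, Pou5f1 and Nanog as checks. Scmh1, Phc3, Pcgf1, Pcgf3, Pcgf6, Ezh1, Cdkn2a, Sox7 and Foxa2 and the fibroblast genes at the floor were named after their values were seen. So were Msx2, Cdx2, Hoxd8, Hoxd9, Hoxb9 and Hoxc5. Alternatives covered the floor, a pseudocount of 32, scaling, the choice of probe set and the fold threshold. The number of arrays limits the precision, and no p-value is given.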

Additional observations from a re-analysis of the deposited data

How the results depend on the processing

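Across 8 settings of floor, scaling and probe set, 112 of 120 paralog differences moved by less than the measurement SD, 7 moved by more and 1 changed sign. On day 2 against day 0, Bmi1 minus Pcgf2 was 2.29 with the mean over probe sets (2.98 as reported), and Cbx7 minus Cbx8 was -1.88 with that mean and -2.18 with the floor raised to percentile 60 (-3.01 as reported). Cbx7 minus Cbx2, day 2 against day 1, was 0.07 as reported and -0.21 with the mean over probe sets. Of 216 log2 ratios of single genes, 8 moved by more than the measurement SD and 0 called ones changed sign. The number of members apart was 7 instead of 3 on day 1 with a 1.5-fold threshold, 3 instead of 5 on day 2 with a 3-fold threshold, and 1 instead of 0 between day 1 and day 2 with 1.5-fold. It was 4 on day 2 with the floor at percentile 60 or the mean over probe sets, where Cbx8 lost its call. Median scaling or the mean over probe sets gave 2 members higher on day 1 in place of 1. Of 320 list counts, 42 moved by over 1.5 times. The counts over all genes ran from 346 to 1823 higher and 285 to 2154 lower on day 1 (818 and 890 as reported), from 720 to 2795 and 540 to 3026 on day 2 (1532 and 1398), and from 227 to 2003 and 112 to 1630 between day 1 and day 2 (752 and 495), the ends coming from the 3-fold and 1.5-fold thresholds. No paired analysis was possible because each day has 1 array. Where the cause of a move is not the setting's own construction, it was not tested. Signals near the floor, those of Cbx8 and of the second Pcgf2 probe set, limit what can be read of these genes.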
